A study of Mus musculus with 9 samples.

Results

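Krüppel-like factors (KLFs) of macrophages were followed here through 7 genes chosen by name, Klf2, Klf3, Klf4, Klf6, Klf7, Klf10 and Klf13, out of 55487 gene identifiers in the count tables. All 7 had enough reads to be tested, among 13453 genes that did. The libraries were poly(A) RNA-seq of J774A.1, an established mouse macrophage line, in 3 groups of 3 libraries. One group carried a control guide RNA called safe, with the genotype given as WT, and the others carried SLC12A9 sgRNA 11 or SLC12A9 sgRNA 15, with the genotype given as SLC12A9 knockdown. Slc12a9 encodes a member of the cation-chloride cotransporter family, and the series, which concerns the osmolarity of lysosomes, compares knockout with control cells. Cells of all groups had been kept in serum-free, glutamine-free DMEM for 6 h. Whether a guide's cells were a pool or a single clone, and whether replicates were separate cultures, is not given in the sources used here, so the p-values reflect the spread between libraries, which may be technical, and fewer cells of a kind cannot be told apart from less RNA per cell.

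KLFs are transcription factors that bind CACCC elements and GC boxes in promoters through zinc fingers at the end of the protein, while the rest of the protein, which differs between members, recruits activators or repressors. In monocytes and macrophages KLF2 is known as a brake on inflammatory activation, KLF4 acts in monocyte differentiation and alternative activation, and KLF6 favours inflammatory activation. KLF3 represses through the corepressor CtBP, KLF10 is an early gene of TGF-beta signalling that recruits the SIN3A complex, and KLF13, which also binds SIN3A, was first described as an activator of the chemokine gene Ccl5 in T cells. The closely related SP factors share the same type of DNA-binding domain.

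The RefSeq promoter table (build GRCm38.p6, the mm10 assembly) held 6 of the 7 genes, and Klf10 had no entry. Promoters of 4 genes are printed because they cover the types of change described below: Klf4 and Klf13 were higher with both guides, Klf2 was higher with sgRNA 11, and Klf6 went in opposite directions. Each runs 5′ to 3′ on the gene's strand from 250 bases before the RefSeq start to the last base before transcription by both RefSeq and GENCODE. Capitals mark GC boxes (GGGCGG on either strand), the E-box CACGTG, the core of sites bound by TFEB and related factors, and the MEF2 site.
Klf4, chr4:55532476-55532725, minus strand: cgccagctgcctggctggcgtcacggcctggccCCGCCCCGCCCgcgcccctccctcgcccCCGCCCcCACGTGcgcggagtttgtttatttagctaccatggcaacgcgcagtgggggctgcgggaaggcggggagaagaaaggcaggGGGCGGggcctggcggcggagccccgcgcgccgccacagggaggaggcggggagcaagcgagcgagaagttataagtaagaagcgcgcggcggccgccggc
Klf13, chr7:63938916-63939165, minus strand: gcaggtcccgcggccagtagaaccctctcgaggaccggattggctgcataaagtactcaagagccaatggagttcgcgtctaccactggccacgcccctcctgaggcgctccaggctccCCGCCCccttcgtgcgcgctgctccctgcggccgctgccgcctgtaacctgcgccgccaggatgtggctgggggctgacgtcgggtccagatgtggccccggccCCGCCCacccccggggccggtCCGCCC
Klf2, chr8:72318812-72319032, plus strand: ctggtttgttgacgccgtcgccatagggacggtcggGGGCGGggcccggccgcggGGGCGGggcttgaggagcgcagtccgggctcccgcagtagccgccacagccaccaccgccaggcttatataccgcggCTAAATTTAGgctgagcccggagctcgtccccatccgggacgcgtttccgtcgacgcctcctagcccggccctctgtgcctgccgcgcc
Klf6, chr13:5861239-5861481, plus strand: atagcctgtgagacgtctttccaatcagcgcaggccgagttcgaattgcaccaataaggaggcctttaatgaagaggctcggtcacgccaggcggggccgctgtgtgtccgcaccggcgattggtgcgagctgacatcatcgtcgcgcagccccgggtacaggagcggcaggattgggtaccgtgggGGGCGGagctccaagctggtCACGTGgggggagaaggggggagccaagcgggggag

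Motifs were searched on both strands of the whole windows, 250 bases before to 50 after the start, and the same was done for all 32851 promoters of the table. GGGCGG was in 6 of the 6 KLF promoters and in 35.7% of all promoters. The KLF promoters were 58.3 to 76.7% G and C, against a median of 52.7% over all. CACGTG was in 2 of 6, those of Klf4 and Klf6, and in 7.15% of all. The MEF2 site was in 1, that of Klf2, and in 3.19% of all. CACCC, the element KLFs bind, was in 4 of 6 (Klf2, Klf3, Klf7 and Klf13) and in 57.5% of all. In Klf13 it shares its first base with a GC box. TGACG, part of the cyclic AMP response element, was in 4 of 6 and in 20.8% of all. TGATGNAA (the C/EBP-ATF response element), TGANTCA (the AP-1 site), TATAAA and the CArG box of serum response factor were in 0 of 6, and in 3.97%, 7.81%, 13.6% and 1.63% of all. These matches describe letters in a window and show no binding. The windows follow the RefSeq start, which can differ from that of GENCODE. The Klf7 window (chromosome 1, 64121340 to 64121639) lies wholly inside its GENCODE gene (64029447 to 64122282). In Klf3 the GENCODE start (64803388) lies inside the window (64803271 to 64803570), ahead of the RefSeq start. Part of these matches may thus lie in transcribed sequence.

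Total gene counts per library were 16405296 to 25613961, with overlapping ranges in the 3 groups. Neither guide lowered the Slc12a9 mRNA, which stood at 44.8, 53.5 and 47.0 CPM (reads relative to the library total, scaled by TMM) in the safe libraries, 62.6, 66.3 and 67.0 with sgRNA 11 and 48.2, 50.01 and 51.7 with sgRNA 15. Groups are therefore called by the guide on their label. Macrophage markers were present, with all 10 of a list that includes Csf1r, Adgre1, Lyz2 and Spi1 detected. Among markers of other cells, Cd3e, Ncr1, Epcam and Hbb-bs had 0 reads in every library, and the summed level of the list was 2.83 to 3.59 CPM with safe sgRNA, 2.49 to 2.96 with sgRNA 11 and 1.76 to 3.04 with sgRNA 15. The macrophage markers themselves differed between groups, with summed levels of 6065 to 6221, 9519 to 9824 and 7844 to 7915 CPM, and most of that came from Lyz2 (1727 ± 117, 4513 ± 87.2 and 3567 ± 37.7 CPM, SD, n = 3 each). Their part in the KLF results was not tested.

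With sgRNA 11, 6 of the 7 KLF genes passed an adjusted p of 0.05 in the edgeR quasi-likelihood test, 5 higher and 1 lower. Among all tested genes 65.8% passed, 33.3% higher and 32.4% lower. With sgRNA 15, 5 passed, 4 higher and 1 lower, against 62.9% of all genes, 32.2% higher and 30.7% lower. Such a call is thus common in these libraries, and size separates the members better. A log2 fold change of at least 1 in addition was reached by Klf4 only, with both guides, while 8.36% of all genes reached it with sgRNA 11 (5.7% higher and 2.66% lower) and 6.99% with sgRNA 15 (5.11% higher and 1.88% lower). With both guides, 3.69% of all genes reached it as higher and 1.06% as lower. The median log2 fold change of the 7 genes was 0.57 with sgRNA 11 and 0.13 with sgRNA 15, beside 0.01 for all tested genes in each. Both comparisons use the same 3 safe libraries. Klf3, Klf4 and Klf13 were higher with both guides, as were 26% of all tested genes, and none of the 7 was lower with both, as 25.7% were. Klf2 was called with sgRNA 11 only, Klf6 and Klf10 were called in opposite directions, and Klf7 was called with neither.

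**Figure D1:**
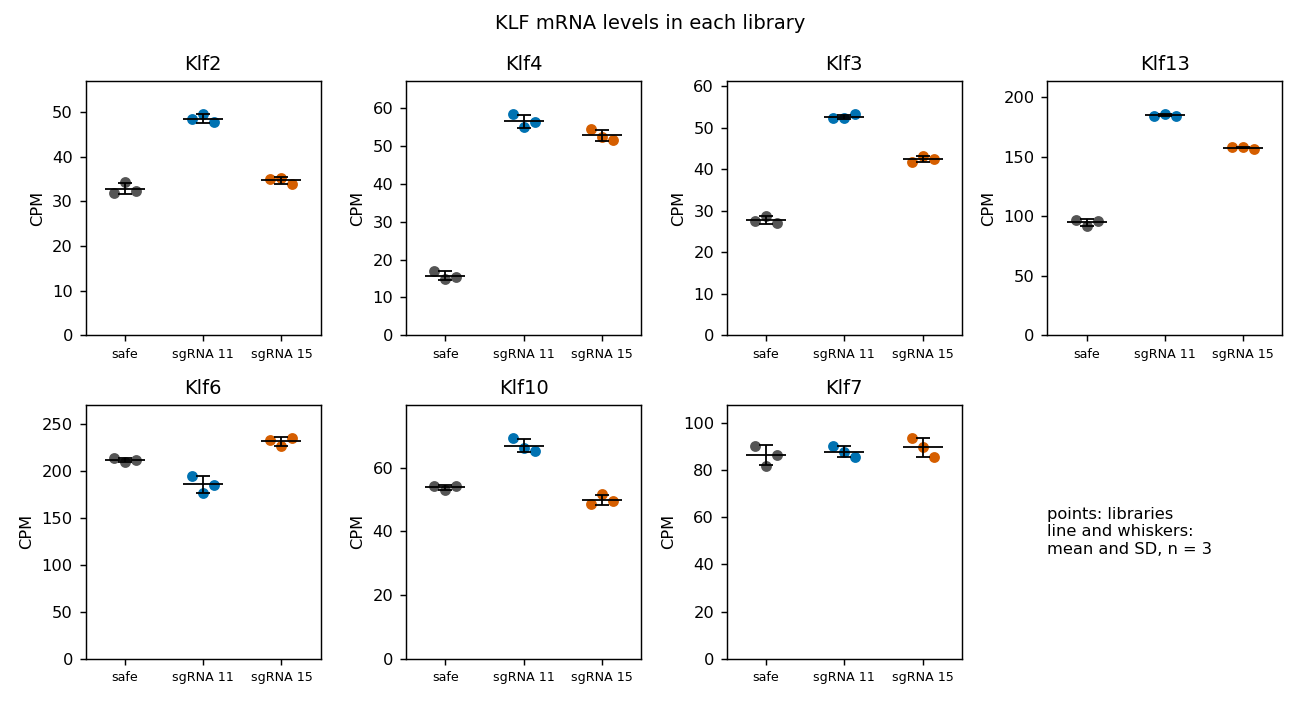
Level of each KLF mRNA (y axis, CPM from 0) in the 3 groups, with 1 point per library and a line and whiskers for the mean and SD of 3 libraries. The Klf4 points of both guides lie between 51.6 and 58.4 CPM, above safe libraries at 14.8 to 17.05, while those of Klf7 overlap in all groups.

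Klf4, the factor of monocyte differentiation, had the largest change of the family. The gene (ENSMUSG00000003032, mm10 chromosome 4, 55527143 to 55532466, minus strand, protein coding) was at 17.05, 14.8 and 15.4 CPM with safe sgRNA. The sgRNA 11 libraries held 58.4, 55.01 and 56.3 CPM and the sgRNA 15 libraries 54.6, 52.4 and 51.6 CPM. All 6 guide libraries lay above all 3 safe libraries, by more than the spread within any group, and the ranges of the 2 guides did not overlap each other either. CPM ranges that do not overlap are common here too, at 67.7% of all tested genes for sgRNA 11 against safe sgRNA, 65.8% for sgRNA 15 against safe sgRNA and 42.8% between the guides. Klf4 rose 3.58-fold with sgRNA 11 (log2 1.84, SE 0.06, edgeR adjusted p = 2.19e-45) and 3.34-fold with sgRNA 15 (log2 1.74, SE 0.06, adjusted p = 4.00e-43). Only 194 of the 13453 tested genes had a larger absolute log2 change in the mean of both guides. The difference between the guides did not pass the threshold (log2 -0.10, 95% interval -0.20 to -0.0009, adjusted p = 0.118), which allows a level with sgRNA 15 as low as 0.873 times that with sgRNA 11.

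Klf13 and Klf3, the latter known mainly as a repressor, followed with smaller rises. Klf13 (ENSMUSG00000052040, chromosome 7, 63886351 to 63938915, minus strand) was at 97.0, 91.7 and 95.6 CPM with safe sgRNA, 184, 186 and 184 with sgRNA 11, and 158, 158 and 157 with sgRNA 15. The 3 groups were fully separate, in the order safe, sgRNA 15, sgRNA 11. Klf13 rose 1.95-fold with sgRNA 11 (log2 0.96, SE 0.03, edgeR adjusted p = 1.03e-44) and 1.66-fold with sgRNA 15 (log2 0.73, SE 0.03, adjusted p = 8.65e-36). The level with sgRNA 15 was lower than with sgRNA 11 (log2 -0.23, SE 0.03, adjusted p = 5.21e-10).

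Klf3 (ENSMUSG00000029178, chromosome 5, 64803388 to 64832901, plus strand) was at 27.4, 28.8 and 26.99 CPM with safe sgRNA, 52.4, 52.3 and 53.3 with sgRNA 11, and 41.7, 43.2 and 42.4 with sgRNA 15. Here too no group overlapped another, and the order was that of Klf13. The rise was 1.90-fold with sgRNA 11 (log2 0.93, SE 0.05, edgeR adjusted p = 3.16e-28) and 1.53-fold with sgRNA 15 (log2 0.61, SE 0.05, adjusted p = 2.10e-17), and the guides differed (log2 -0.31, SE 0.05, adjusted p = 2.08e-07). Although Klf3 lies on the same chromosome as Slc12a9, their mm10 positions are far apart (Slc12a9 at 137314558 to 137333597). Of all pairs among the 7 genes, Klf3 and Klf13 had the most similar profiles, with a root mean square difference of 0.09 in log2 CPM relative to safe sgRNA over the 9 libraries. The most distant pair was Klf4 and Klf6, at 1.501.

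Klf2, the anti-inflammatory member, was higher with sgRNA 11 and was not called with sgRNA 15. The gene (ENSMUSG00000055148, chromosome 8, 72319033 to 72321656, plus strand, a single transcript of 3 exons) was at 31.9, 34.3 and 32.4 CPM with safe sgRNA, 48.5, 49.6 and 47.8 with sgRNA 11, and 35.1, 35.2 and 33.8 with sgRNA 15. The sgRNA 11 libraries stood apart, and the sgRNA 15 libraries overlapped the safe ones. With sgRNA 11 Klf2 rose 1.48-fold (log2 0.57, SE 0.05, edgeR adjusted p = 1.67e-16). With sgRNA 15 the log2 difference was 0.08 (95% interval -0.03 to 0.19, adjusted p = 0.187), so a rise of up to 1.14-fold lies within the interval. With library size as the only scaling, that difference was 0.12 (adjusted p = 0.0499). The difference between the guides was itself called (log2 -0.48, SE 0.05, adjusted p = 7.60e-13), and 5.22% of tested genes had a lower value in that comparison.

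Klf6 and Klf10, both induced early after many stimuli, changed in opposite directions with the guides, as did 1.88% of all tested genes. Klf6 (ENSMUSG00000000078, chromosome 13, 5861482 to 5870394, plus strand) was at 214, 209 and 211 CPM with safe sgRNA, 194, 177 and 185 with sgRNA 11, and 233, 226 and 235 with sgRNA 15. The groups were separate, with safe sgRNA in the middle. Klf6 fell by 0.19 on the log2 scale with sgRNA 11 (SE 0.03, edgeR adjusted p = 1.67e-08) and rose by 0.13 with sgRNA 15 (SE 0.03, adjusted p = 5.94e-05). The difference between guides was 1.24-fold (log2 0.32, SE 0.03, adjusted p = 3.08e-16).

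Klf10 (ENSMUSG00000037465, chromosome 15, 38291463 to 38300706, minus strand) moved the other way. It was at 54.3, 52.9 and 54.4 CPM with safe sgRNA, 69.4, 66.1 and 65.4 with sgRNA 11, and 48.7, 51.7 and 49.4 with sgRNA 15, again without overlap. With sgRNA 11 it rose 1.24-fold (log2 0.31, SE 0.04, edgeR adjusted p = 1.97e-09). The fall with sgRNA 15 was small (log2 -0.11, SE 0.05, adjusted p = 0.0418), and the call was lost in 7 of 18 alternatives, over which the adjusted p ranged from 0.000186 to 0.203. Without safe replicate 1, sgRNA 15 replicate 1 or sgRNA 15 replicate 3 the adjusted p was 0.0762, 0.140 and 0.0535. The difference between the guides (log2 -0.42, SE 0.05, adjusted p = 5.58e-13) passed in all 18 alternatives.

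Klf7, a relative of Klf6 by sequence, was not called in any comparison. It lay at 90.2, 81.7 and 86.4 CPM with safe sgRNA, 89.9, 87.7 and 85.4 with sgRNA 11, and 93.5, 89.7 and 85.3 with sgRNA 15, with all ranges overlapping. The log2 difference from safe sgRNA was 0.02 with sgRNA 11 (95% interval -0.05 to 0.10, edgeR adjusted p = 0.608) and 0.06 with sgRNA 15 (-0.02 to 0.13, adjusted p = 0.212), which leaves room for a rise of 1.07-fold and 1.10-fold. The Klf7 gene (ENSMUSG00000025959, chromosome 1, 64029447 to 64122282, minus strand) shares 39.4% of its exon length with genes annotated on the other strand, mainly Gm26649, which has no row in the count tables. Whether counting used strand is not given in the sources used here, so the Klf7 level is uncertain. For Klf3 this share was 3.59%, and the other 5 genes overlapped no annotated exon of another gene.

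**Figure D2:**
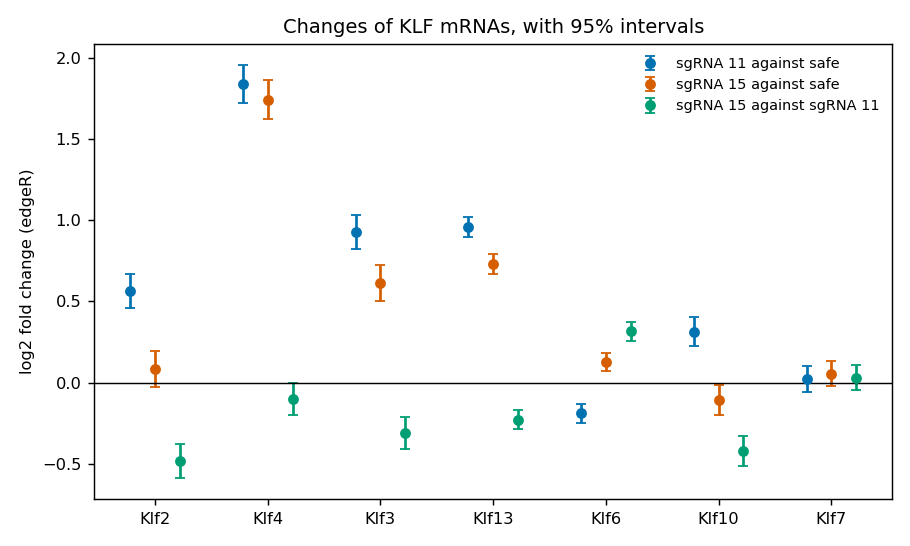
Log2 fold change of each KLF gene (y axis, edgeR) for each guide against safe sgRNA and for sgRNA 15 against sgRNA 11, with 95% intervals as whiskers. Klf4 stands highest at 1.84 and 1.74, and the values of Klf6 and Klf10 for the 2 guides lie on opposite sides of 0.

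In the comparison of sgRNA 15 with sgRNA 11, 5 of the 7 genes were called, 4 lower with sgRNA 15 (Klf2, Klf3, Klf10 and Klf13) and 1 higher (Klf6). Among all tested genes 33.5% were called, 15.5% lower and 18% higher. None of the 7 reached a log2 difference of 1, which 1.34% of all genes did (0.773% higher and 0.565% lower). In the same comparison 7 of the 10 macrophage markers were lower with sgRNA 15, among them Csf1r (log2 -0.59), Itgam (-0.59), Fcgr1 (-0.55) and Mertk (-0.39), while Cd68 (0.56) and Cd14 (0.19) were higher. The exons of Csf1r and Itgam overlap those of neighbouring genes by 15.1 and 68.7%, which makes both values uncertain. Whether the marker differences bear on those of the KLF genes was not tested. When the 2 guides were averaged and set against the safe libraries, 5 of 7 genes were called, all higher, against 68% of all genes (34.7% higher and 33.3% lower). A log2 change of at least 1 was again reached by Klf4 only, beside 7.2% of all genes (5.12% higher and 2.08% lower). That test leaves out differences between the guides, so Klf10, which changed in opposite directions, was called in it at log2 0.10 (edgeR adjusted p = 0.0160) and Klf6 was not (log2 -0.03, adjusted p = 0.275). That Klf10 call was lost in 5 of 17 alternatives.

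Levels were compared between genes as RPKM, the CPM divided by the exon length in kilobases. With safe sgRNA, Klf6 was the most abundant at 48.1 ± 0.541 RPKM (SD, n = 3 here and below), followed by Klf2 (17.8 ± 0.678), Klf10 (12.9 ± 0.201), Klf13 (12.6 ± 0.365), Klf7 (10.6 ± 0.521), Klf4 (5.16 ± 0.389) and Klf3 (2.47 ± 0.0841). All neighbours in this order were separate except Klf10 and Klf13, whose libraries overlapped. With sgRNA 11 the order was Klf6 (42.2 ± 2.03), Klf2 (26.3 ± 0.501), Klf13 (24.5 ± 0.115), Klf4 (18.6 ± 0.568), Klf10 (16.02 ± 0.509), Klf7 (10.8 ± 0.277) and Klf3 (4.68 ± 0.0480), with no overlap between neighbours. With sgRNA 15 it was Klf6 (52.6 ± 1.07), Klf13 (20.9 ± 0.0981), Klf2 (18.8 ± 0.413), Klf4 (17.3 ± 0.495), Klf10 (11.96 ± 0.377), Klf7 (11.0 ± 0.503) and Klf3 (3.77 ± 0.0682), again without overlap. On this scale Klf4 moved from the sixth place to the fourth with either guide. The exon length counts every annotated exon once, 11243 bases for Klf3 against 5221 in its principal transcript. With principal transcripts as the length, Klf3 stood at 5.31 RPKM with safe sgRNA and overlapped Klf4 (5.19), and Klf10 (17.7) overlapped Klf2 (17.8). On that scale Klf13 (28.9) lay above Klf2 (26.3) and Klf10 (21.99) above Klf4 (18.7) with sgRNA 11, so these neighbours change places with the length used.

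**Figure D3:**
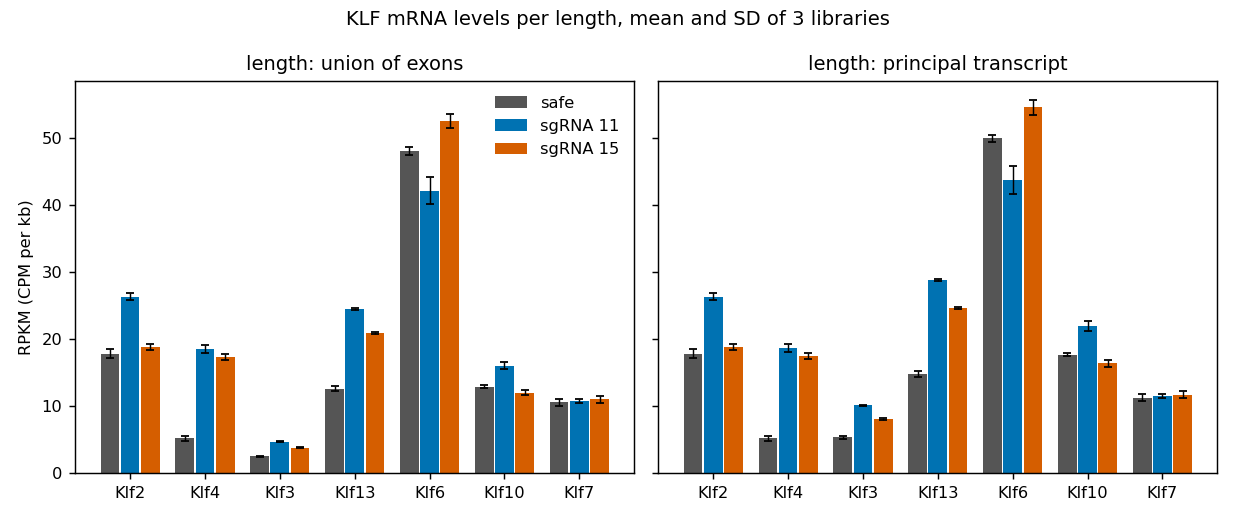
RPKM of each KLF gene (y axis, from 0) in the 3 groups, as bars for the mean and whiskers for the SD of 3 libraries, with the exon union as the length on the left and the principal transcript on the right. Klf6 is the highest in each group on both scales, and Klf3 more than doubles in height from the left panel to the right.

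Of 11 further KLF genes 5 were tested, Klf18 had no identifier, Klf5 and Klf14 had 0 reads in all 9 libraries, and Klf12, Klf15 and Klf17 had at most 8 reads in any. Klf9, a glucocorticoid-responsive relative of Klf13, was at 18.4, 20.3 and 18.8 CPM with safe sgRNA, 39.1, 40.4 and 38.2 with sgRNA 11, and 44.1, 44.4 and 42.2 with sgRNA 15. It was higher in all guide libraries (log2 1.03 and 1.19, SE 0.06 each, edgeR adjusted p = 2.09e-27 and 1.87e-31), the largest rise in the family after that of Klf4. Between the guides Klf9 was slightly higher with sgRNA 15 (log2 0.16, edgeR adjusted p = 0.0187). Klf16, a repressor, went down from 44.2, 50.2 and 52.8 CPM to 26.8, 24.9 and 28.1 and to 24.9, 26.5 and 30.4. It fell by 0.87 and 0.85 on the log2 scale (SE 0.06 each, adjusted p = 6.86e-19 and 2.77e-18). Klf11, the other TGF-beta-induced member beside Klf10, rose with sgRNA 11 (log2 0.34, SE 0.10, adjusted p = 0.00239) and not by the test with sgRNA 15 (0.04, adjusted p = 0.748), and the guides differed (-0.30, adjusted p = 0.0163). Klf8 (3.08 to 3.93 CPM as group means) and the erythroid Klf1 (0.443 to 0.874) were not called against safe sgRNA. At these low levels Klf1 was called between the guides, higher with sgRNA 15 (log2 0.98, edgeR adjusted p = 0.0464).

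Of 9 SP factors 7 were tested. Sp1, the general activator at GC boxes, rose modestly with both guides (122 ± 3.27, 148 ± 6.67 and 148 ± 3.80 CPM, SD, n = 3 each, log2 0.28 with each, edgeR adjusted p = 1.16e-12 and 5.78e-12). Sp3, which competes with SP1 for such sites, fell from 139 ± 2.46 to 119 ± 1.94 and 118 ± 2.49 CPM (log2 -0.23 and -0.24, adjusted p = 1.18e-09 and 2.20e-10). Sp2 rose with both guides (0.23 and 0.18, adjusted p = 0.000150 and 0.00266). Sp4 was not called, nor was Sp9, and Sp8 (1.41 to 2.29 CPM) was called only between the guides (0.67, adjusted p = 0.0266). Sp5 was called with sgRNA 11 (1.51, adjusted p = 0.0145) at levels of 0.177 to 0.495 CPM. Sp6 and Sp7 had 0 reads.

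**Figure D4:**
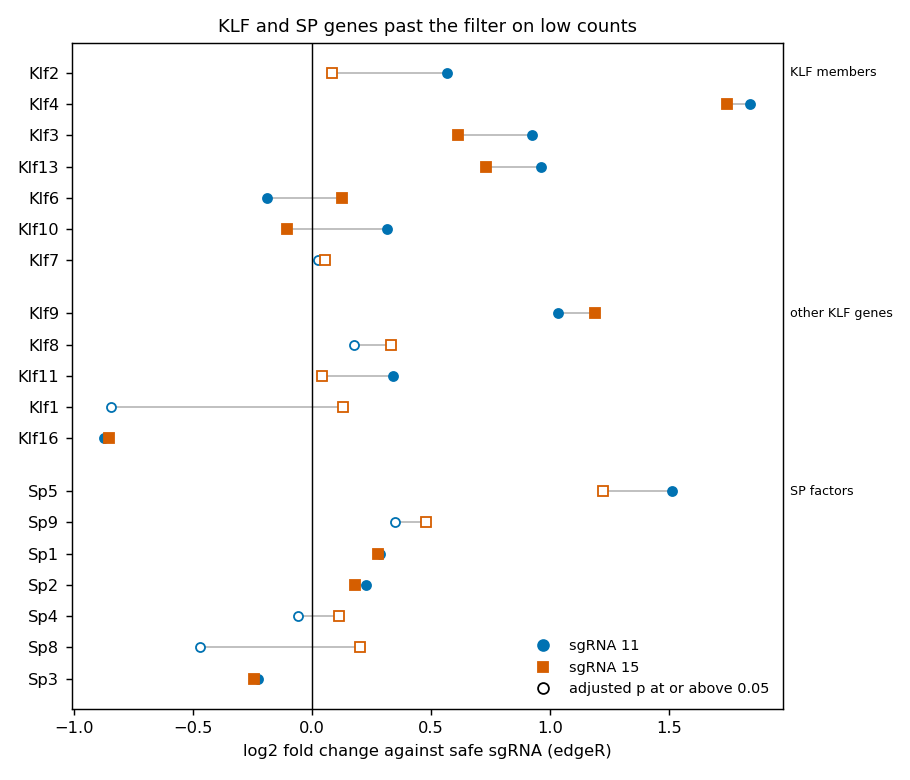
Log2 fold change against safe sgRNA (x axis, edgeR) of each tested KLF and SP gene, with circles for sgRNA 11 and squares for sgRNA 15, open where the adjusted p was 0.05 or above. Klf4 and Klf9 lie farthest right among genes called with both guides, and Klf16 (-0.87 and -0.85) lies farthest left among them.

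Genes upstream of the KLFs were taken from lists chosen by their known roles. The kinase ERK5, encoded by Mapk7, drives Klf2 and Klf4 transcription through MEF2 factors, which class IIa histone deacetylases hold back. Of 12 tested genes of this arm, 7 rose and 2 fell with sgRNA 11, and 8 rose and 4 fell with sgRNA 15 (medians log2 0.20 each, beside 0.01 for all genes). Of all tested genes, 33.3% rose and 32.4% fell with sgRNA 11, and 32.2% rose and 30.7% fell with sgRNA 15. Mef2a, a MEF2 factor, rose from 154 ± 4.27 to 227 ± 9.30 and 228 ± 6.73 CPM (SD, n = 3 each, log2 0.56 and 0.57, edgeR adjusted p = 1.93e-30 and 1.79e-30). Map2k5, the kinase that activates ERK5, rose as well (0.43 and 0.45, adjusted p = 3.15e-11 and 6.36e-12). Mef2b rose at low levels (0.866 ± 0.233, 3.90 ± 0.236 and 3.49 ± 0.681 CPM), and the deacetylase Hdac4, whose exons overlap a gene on the other strand, rose by log2 0.45 and 0.30. Mapk7, Mef2c and Hdac9 are added here with knowledge of their levels, in the order safe sgRNA, sgRNA 11 and sgRNA 15. Mapk7 was at 49.4 ± 2.94, 55.5 ± 2.22 and 59.5 ± 1.87 CPM. Lower levels were seen for Mef2c with sgRNA 15 only (151 ± 4.77, 157 ± 4.85 and 117 ± 2.40 CPM). Hdac9 was lower with both guides (3.58 ± 0.126, 1.73 ± 0.260 and 1.16 ± 0.299 CPM). Between the guides, 1 of the 12 was higher and 5 were lower with sgRNA 15, beside 18% and 15.5% of all genes.

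TGF-beta signalling through SMAD proteins induces Klf10 and Klf11. Of 10 tested genes of this arm, 6 rose and 2 fell with sgRNA 11, and 5 rose and 2 fell with sgRNA 15 (medians 0.25 and 0.21), where 65.8% and 62.9% of all genes were called. Smad3, which carries the signal to the nucleus, fell from 46.1 ± 0.623 to 32.4 ± 0.575 and 23.6 ± 0.895 CPM (log2 -0.51 and -0.96, edgeR adjusted p = 6.58e-14 and 4.62e-27). Of the negative regulators of SMADs in the list, Skil, Ski and Tgif1 rose, and Smad7, added after its values were seen, was not called (log2 0.30 and 0.36, adjusted p = 0.133 and 0.0649). Skil went from 61.4 ± 2.46 to 105 ± 4.62 and 80.1 ± 1.91 CPM (0.78 and 0.38), Ski from 118 ± 6.29 to 183 ± 2.10 and 156 ± 4.27 (0.63 and 0.40), and Tgif1 from 59.2 ± 1.76 to 84.6 ± 1.37 and 95.7 ± 1.64 (0.51 and 0.69). Those 3 passed the test with both guides, with adjusted p of at most 2.90e-13. Other listed genes, singled out after their values were seen, went both ways. Tgfb1 stood at 374 ± 7.66, 429 ± 1.67 and 391 ± 1.54 CPM, in the same order of groups. The receptor gene Tgfbr1 stood at 23.5 ± 1.49, 32.2 ± 0.469 and 35.6 ± 2.25 CPM. Tgfbr2 was at 358 ± 4.62, 404 ± 3.25 and 362 ± 9.25 CPM. Smad2 went down, at 46.3 ± 0.380, 38.1 ± 2.26 and 41.2 ± 0.943 CPM.

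Of 13 tested cofactors that KLFs recruit, 3 rose and 5 fell with sgRNA 11, and 2 rose and 7 fell with sgRNA 15 (medians -0.04 and -0.11), beside 33.3% higher and 32.4% lower of all genes with sgRNA 11 and 32.2% and 30.7% with sgRNA 15. Sap30, a subunit of the SIN3A complex that KLF10 and KLF13 recruit, fell from 154 ± 2.70 to 104 ± 5.50 and 108 ± 3.10 CPM (log2 -0.56 and -0.52, edgeR adjusted p = 5.74e-27 and 1.17e-24). The deacetylase Hdac2 fell by 0.59 and 0.49, and Ctbp2, a corepressor of the kind KLF3 binds, fell by 0.38 and 0.40 on the log2 scale. The corepressor Ncor1 rose (0.35 and 0.29, adjusted p = 2.07e-20 and 3.09e-16). Ubiquitin ligases reported to act on KLF proteins were mixed, with 3 higher and 3 lower of 8 with sgRNA 11 and 5 and 2 with sgRNA 15 (medians -0.01 and 0.29), where 65.8% and 62.9% of all genes were called. Among them Fbxo32, an F-box protein, rose from 2.03 ± 0.366 to 9.81 ± 0.587 and 6.27 ± 0.765 CPM (2.25 and 1.59). Siah1a (0.47 and 0.46) and Btrc (0.24 and 0.29) rose, and Smurf1 fell (-0.26 and -0.16).

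Genes that KLF2 or KLF4 are known to raise or lower in endothelium, lymphocytes or macrophages formed the last lists. Of 12 known to be raised, 7 were tested. Among the others, Retnla and Chil3 had 0 reads, and Arg1 and Nos3 had at most 10 in any library. With sgRNA 11, 4 rose and 2 fell, and with sgRNA 15, 5 rose and 2 fell (medians 0.44 and 0.36). The shares of all genes were 33.3% higher and 32.4% lower with sgRNA 11, and 32.2% and 30.7% with sgRNA 15. S1pr1, a sphingosine phosphate receptor and KLF2 target in T cells, rose from 125 ± 1.61 to 226 ± 3.35 and 217 ± 1.60 CPM (log2 0.86 and 0.79, edgeR adjusted p = 7.27e-44 and 4.46e-41). Thbd, which encodes the anticoagulant receptor thrombomodulin, rose from 28.3 ± 0.909 to 38.1 ± 1.42 and 38.1 ± 0.402 CPM (0.44 and 0.43), and the cell cycle inhibitor Cdkn1a rose too (0.80 and 0.36). Cd14, the endotoxin coreceptor, fell from 892 ± 8.58 to 569 ± 12.4 and 647 ± 10.2 CPM (-0.65 and -0.46). Pparg, singled out after its values were seen, stood at 0.656 ± 0.0625, 0.104 ± 0.112 and 0.296 ± 0.163 CPM. Only the safe libraries had at least 10 Pparg reads, so it passed the filter on low counts through them, which favours a fall. Pparg is kept in the counts and medians. Between the guides, 2 of the 7 were higher and 2 lower with sgRNA 15, beside 18% and 15.5% of all genes.

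Of 12 genes known to be lowered, 8 were tested, while Il1b, Il6, F3 and Nos2 had at most 9 reads in any library. With sgRNA 11, 6 fell and 0 rose, and with sgRNA 15, 7 fell and 1 rose (medians log2 -1.08 and -1.21, beside 0.01 for all genes). Of all tested genes, 32.4% were lower with sgRNA 11 and 30.7% with sgRNA 15. The chemokine gene Ccl2 fell from 152 ± 7.78 to 32.2 ± 2.35 and 58.6 ± 0.830 CPM (SD, n = 3 each, log2 -2.23 and -1.37, edgeR adjusted p = 1.35e-60 and 1.25e-47). Tnf fell from 59.5 ± 1.59 to 32.3 ± 0.761 and 28.6 ± 0.842 CPM (-0.88 and -1.05). Hif1a, the oxygen-sensing factor, fell by 1.07 and 0.61, and Ptgs2, the inducible cyclooxygenase, by 1.09 and 1.72 on the log2 scale. The member that rose was Vegfa, singled out after its value was seen, with sgRNA 15, at 0.160 ± 0.196, 0.242 ± 0.0323 and 0.798 ± 0.182 CPM. These lists rest on work in other cells and conditions, and no KLF was perturbed here, so they show levels side by side and not regulation by a KLF.

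**Figure D5:**
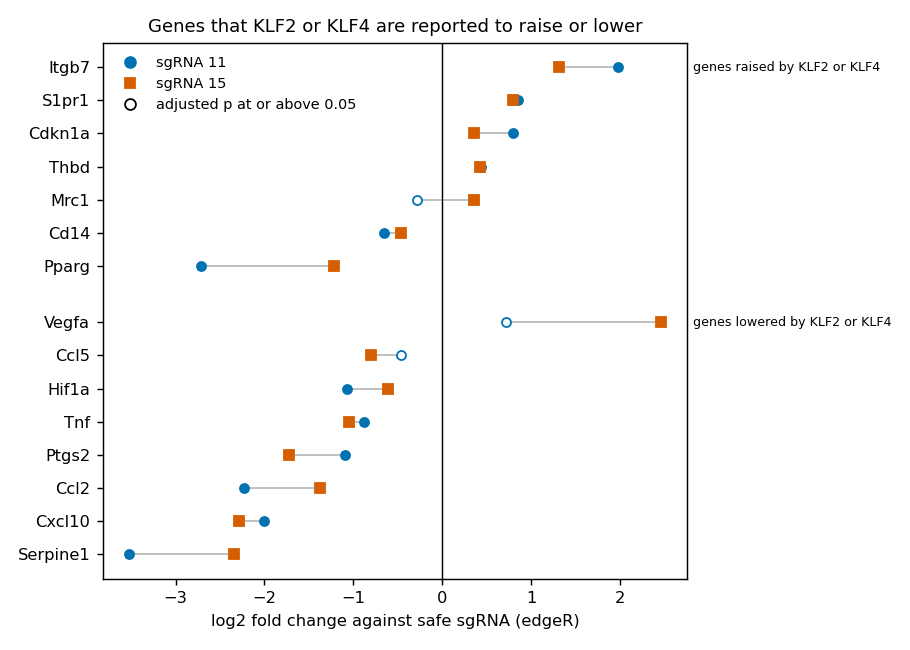
Log2 fold change against safe sgRNA (x axis, edgeR) of the tested genes that KLF2 or KLF4 are known to raise (upper 7) or lower (lower 8), with circles for sgRNA 11 and squares for sgRNA 15, open where the adjusted p was 0.05 or above. In the lower list all but Vegfa lie left of 0 with both guides, and in the upper list Cd14 and Pparg do.

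For each of the 7 genes, the 3 most similar profiles were taken from 9258 named protein-coding genes with a mean of at least 5 CPM, by the root mean square difference of log2 CPM relative to safe sgRNA over the 9 libraries. Closest to Klf4 were Tmem154 (0.06), the sialyltransferase gene St6gal1 (0.09) and Gpt2, an alanine transaminase (0.09), and Tmem154 stood at 24.2 ± 0.778, 85.4 ± 2.34 and 81.6 ± 2.01 CPM. Klf13 was nearest to App, Rinl and Cox7a2l (0.03 to 0.04), and Klf3 to Sft2d2, Pld4 and Clec5a (0.04 to 0.05). Nearest to Klf2 were Rcsd1 (0.03; 122 ± 3.71, 179 ± 2.30 and 126 ± 0.688 CPM), the efferocytosis receptor gene Mertk and Adam15 (0.06 each), the last of which overlaps another gene. The profile of Klf6 was closest to Mtpn, to Nfe2l2, which encodes the antioxidant factor NRF2, and to Edem1 (0.03 to 0.04), all of which were lower with sgRNA 11 and higher with sgRNA 15. Klf10 was closest to Inpp5d, Fgd3 and Cfp (0.04 to 0.05). The neighbours of Klf7 were S100pbp, Dvl3 and Sh3glb1 (0.03 to 0.04). The 9 libraries form 3 groups, so many genes can share a profile.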

How the data were processed

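Per the submitters' processing notes, the authors aligned reads with STAR and counted them with HTSeq on mm10. Their versions, the annotation and the strand setting: not given in the sources used here. The deposited values are whole-number read counts per gene. HTSeq tallies that name no gene (4.10 to 4.60% no feature, 6.32 to 6.56% ambiguous) stayed out, and 79.3 to 80.7% of reads were assigned to genes. Symbols, positions and exon lengths came from GENCODE M21 (mm10).

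The counts entered edgeR 4.0.16 (R 4.3.3) after filterByExpr (minimum count 10), followed by TMM scaling and a robust quasi-likelihood fit of all 9 libraries (6 residual degrees of freedom). Tests were 2-sided with Benjamini-Hochberg adjustment over 13453 genes. No replicate pair agreed within sampling noise (chi-square per degree of freedom 1.76 to 6.83). The highest values were those of safe replicate 1 with safe replicates 2 (6.83) and 3 (5.16), while replicates 2 and 3 were at 2.16. Both guides are compared with these safe libraries. The procedure was also run on simulated data with 13253 of 13453 genes unchanged. Far more genes were called here, so that run does not gauge the error rate in these data. The members and lists were chosen with earlier results of these data known. Named genes were all KLF and SP genes tested, Slc12a9, the markers, up to 4 genes of each other list with the lowest p when both guides were averaged, and 3 nearest profiles (prior count 2). Alternatives were DESeq2 1.42.0, limma-voom (limma 3.58.1), other scalings and filters, a GC and length correction, a replicate block, fits of only the groups compared and each library left out. The length of the principal transcript was added after seeing the data. Single values of 2 listed genes are not reported here.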

Additional observations from a re-analysis of the deposited data

Results flagged for a closer look

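The change from safe sgRNA differed between the guides for 5 KLF genes, by the edgeR test of sgRNA 15 against sgRNA 11. The log2 differences were -0.48 for Klf2, -0.31 for Klf3, 0.32 for Klf6, -0.42 for Klf10 and -0.23 for Klf13. In each case all 3 sgRNA 15 libraries lay on the same side of all 3 sgRNA 11 libraries, which held for 42.8% of all tested genes. Slc12a9 itself differed in this comparison (log2 -0.39, adjusted p = 2.12e-10). With groups of 3 libraries, single libraries were not screened for outliers.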

How the results depend on the processing

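Of 497 KLF values under 18 alternatives, 476 kept their direction and their side of the threshold, among them all 71 each of Klf3, Klf4 and Klf13. The count of called KLF genes stayed at 6 with sgRNA 11 and at 5 between the guides in every alternative, and ranged from 4 to 6 with sgRNA 15 and for the mean of both guides. The sign turned for Klf7, near 0 throughout, with sgRNA 15 after the GC and length correction (-0.015) and between the guides after it (-0.033), and when single libraries were left out. Over those fits Klf7 ranged from -0.023 (without safe replicate 2) to 0.064 with sgRNA 11, from -0.0088 (without safe replicate 2) to 0.076 for the mean of guides, and from -0.0080 (without sgRNA 15 replicate 1) to 0.059 between the guides. It turned for Klf6 in the mean of guides with library size only (0.0050), and for Slc12a9 with sgRNA 15 after the correction (-0.065), with a range of -0.016 (without safe replicate 1) to 0.11 when single libraries were left out. Of the Klf10 calls, that for the mean of guides was lost in 5 of 17 alternatives (log2 0.04 to 0.14 over all 17), among them those without safe replicate 2 (adjusted p = 0.125), safe replicate 3 (0.0515) and sgRNA 15 replicate 2 (0.0566). Klf7 was called with library size only, with sgRNA 15 (0.09, adjusted p = 0.0309) and for the mean of guides (0.08, adjusted p = 0.0429). The Klf2 rise for the mean of guides was smallest at log2 0.22. The cause of these shifts was not tested.

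With the replicate number as a block, 6 KLF genes were called with sgRNA 11, 5 with sgRNA 15, 5 for the mean of guides and 5 between the guides, and 8940, 8550, 9236 and 4695 genes in all. Same-numbered libraries correlated weakly, at 0.02 to 0.10 over 9 pairs, yet 16 of 18 comparisons placed a library nearest to its own number. The labels name no pairing, and the main fit did not use the numbers. Whether same-numbered libraries share a batch was not tested. The smallest KLF count was 285 reads (Klf4), and genes under 1 CPM rest on few reads.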
